A study of Mus musculus with 10 samples.

Results

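The proteolysis of the amyloid precursor protein (APP) was described in brain endothelial cells (BECs) through 9 genes, chosen by name and looked up by their Ensembl identifiers in a table of 14106 genes. They are the substrates App and Aplp2, the beta-secretase genes Bace1 and Bace2, the alpha-secretase gene Adam10, and the gamma-secretase subunit genes Psen2, Ncstn, Aph1a and Psenen. All 9 were in the table and passed the authors' filter on low counts. Bulk RNA sequencing was performed on cortical BECs of female mice aged 1 year, with 5 libraries of APP/PS1 mice and 5 libraries of age-matched female controls labelled WT. APP/PS1 mice carry mutant transgenes of APP and of a presenilin (APPswe/PS1ΔE9) and model amyloid-beta deposition, and the controls had the same C3H/BL6 background without these transgenes. Cells were dissociated from cortex after removal of the meninges and of myelin, and CD31+CD45- cells were taken with magnetic microbeads. The sources used here do not state how many mice gave each library, so the errors below measure the spread between libraries after the batch correction. The study's text names no promoter for the transgenes. In the widely used mouse line of this name the promoter of the mouse prion gene Prnp drives a mouse APP cDNA with a humanized amyloid-beta part. Reads of the transgene and of the endogenous App gene may therefore be counted together. Whether they were is not stated in the sources used here. The App level was not used as a check of the genotype labels.

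APP is a membrane protein that is cut in a fixed sequence. Alpha-secretase cuts inside the amyloid-beta stretch and releases a soluble ectodomain, whereas beta-secretase cuts at its start and leaves a membrane stub from which gamma-secretase then frees amyloid-beta. APLP2 is a paralog that passes through the same enzymes but holds no amyloid-beta sequence. BACE1 is the main beta-secretase of neurons, BACE2 is its homolog and is better known from tissues outside the brain, and ADAM10 is the constitutive alpha-secretase. Gamma-secretase is a complex of a presenilin as the catalytic subunit, nicastrin (Ncstn), which binds substrates, APH1, which acts as a scaffold, and PEN-2 (Psenen), which completes the maturation of presenilin. In endothelium the same enzymes also cut Notch receptors, cadherins and growth factor receptors.

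All levels below are log2 CPM (the logarithm to base 2 of the counts scaled to a common library size, CPM), a scale on which 1 unit is a doubling, and are batch-corrected values as deposited. A difference is the APP/PS1 value minus the control value, so a negative difference is a lower level in APP/PS1. Libraries with the same replicate number in the labels (control 1 and APP/PS1 1, and so on) shared a batch, and each such couple is called a pair. The correction had set both libraries of a pair to the same distance on either side of the batch mean. The libraries of a pair thus deviate as mirror images, and the 5 pair differences are the independent values. The batch means were also nearly equal, so groups do not overlap where all 5 pair differences share a sign. Overlap and pair signs are thus not separate results. A group SD leaves out the spread between batches, and both groups restate the same 5 deviations. For Bace2 the SD was 0.099 in each group and 0.198 for the pair differences. The adjusted count total of a library was 22993426 to 126686149 in controls and 22371766 to 114525432 in APP/PS1, and the lowest total of each group was that of replicate 1. These are counts after the batch correction rather than sequenced reads and give no counting error. The lowest adjusted count of a member in any library was 101, for Bace2.

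The labelled cell type was checked against marker genes. For each list the gene with the highest mean log2 CPM, not corrected for length, is named. The 20 endothelial markers were all present and summed to 38680 to 41828 CPM in controls and to 38273 to 41435 CPM in APP/PS1, led by Flt1. Markers of other cells were present at far lower sums. The 11 mural (pericyte and smooth muscle) markers in the table, led by Rgs5, summed to 617 to 1040 CPM in controls and 319 to 620 CPM in APP/PS1, and 11 of 11 were lower on average in APP/PS1 with a median log2 difference of -0.77. The 8 oligodendrocyte markers in the table, led by Cnp, summed to 40.1 to 277 CPM in controls and 32.9 to 141 CPM in APP/PS1, and 8 of 8 were lower with a median of -2.42. Among the 9 neuronal markers in the table, led by Stmn2, 8 were lower (median -0.57), and the sums were 124 to 148 CPM and 116 to 138 CPM. The neuronal markers Syt1, Rbfox3, Nefl, Nefm, Tubb3 and Gad2 were not in the table. Astrocyte markers (10 of 11 lower, median -1.05, 176 to 217 and 173 to 216 CPM), oligodendrocyte precursor markers (5 of 7 lower, median -0.74, 66.1 to 82.1 and 58.4 to 70.6 CPM) and choroid plexus markers (4 of 5 lower, median -1.03, 54.7 to 88.6 and 39.5 to 59.6 CPM) were led by Gja1, Vcan and Ttr. Gja1 makes up most of the astrocyte sum and was the only astrocyte marker higher on average (0.27). That sum therefore hides the lower levels of the other astrocyte markers. Vcan, which leads the precursor list, was also higher (0.19). Of the 8 microglial markers used, led by Csf1r, 4 were lower with a median of -0.07, and they summed to 11.5 to 18.9 CPM and 10.2 to 17.3 CPM. In bulk samples fewer cells of a type and less RNA per cell cannot be told apart.

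The substrates were the members at the highest level per kb of exon. The 250 bases before the RefSeq start site of App and Aplp2 (build GRCm38.p6) are printed because these genes had the highest levels and because Aplp2 was the member whose pattern over the libraries was nearest to that of App. Capitals mark GGGCGG, the core of a GC box, as read on the printed strand or as CCGCCC.
App promoter, chr16:85173708-85173957, minus strand: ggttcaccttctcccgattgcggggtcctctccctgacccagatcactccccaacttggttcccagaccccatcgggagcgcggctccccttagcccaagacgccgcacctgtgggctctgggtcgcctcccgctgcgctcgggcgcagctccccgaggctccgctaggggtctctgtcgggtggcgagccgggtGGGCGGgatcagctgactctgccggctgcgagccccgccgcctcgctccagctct
Aplp2 promoter, chr9:31211849-31212098, minus strand: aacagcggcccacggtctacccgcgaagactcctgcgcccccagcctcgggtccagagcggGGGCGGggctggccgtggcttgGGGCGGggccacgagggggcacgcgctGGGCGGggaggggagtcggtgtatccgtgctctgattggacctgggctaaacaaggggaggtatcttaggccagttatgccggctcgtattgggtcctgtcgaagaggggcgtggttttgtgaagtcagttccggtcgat
The App window held 1 GC box core, 23 CpG and 70.8% G or C, and the Aplp2 window held 3 cores, 22 CpG and 66.4%. Both windows were GC-rich and neither held TATAAA. Windows of the same length were found for 7 members, 9 windows in all, of which 5 held GGGCGG on either strand and 0 held TATAAA. Among all 32851 RefSeq windows, 32.7% held GGGCGG and 12.4% held TATAAA on either strand. Each of the 9 member windows had more CpG than the median window, which had 6. Outside the substrates, the Adam10 window held 3 GC box cores and 29 CpG, and the Ncstn window held 0 cores and 21 CpG. A match is a description of letters and was not tested for binding.

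Expressed per kb of exon, so that genes of different length can be set side by side, the members spanned 8.39 log2 units, a 336-fold range. Aplp2 was highest at 7.75 log2 CPM per kb (mean of 10 libraries), above 99.1% of genes. App followed at 7.28 log2 CPM per kb, above 98.6% of genes, and Adam10 at 6.19 log2 CPM per kb, above 96.6%. The substrates and the alpha-secretase therefore stood among the most abundant transcripts of these cells. Ncstn was at 4.92 log2 CPM per kb, above 90.1% of genes. The remaining gamma-secretase subunits were lower, with Aph1a at 3.19, Psen2 at 2.92 and Psenen at 1.95 log2 CPM per kb. Bace1 was at 2.69 log2 CPM per kb, above 55.6% of genes, and Bace2 was last at -0.64 log2 CPM per kb, above 12.9% of genes. The median gene was at 2.38 log2 CPM per kb, and 7 of the 9 members lay above it. The ranges over the 10 libraries did not overlap for any neighbours in this order. The length used decides part of the order. Per kb of the longest transcript instead of all exons, Psen2 (4.02) passed Aph1a (3.46) and Psenen (2.80) passed Bace1 (2.76), and the other ranks were the same.

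**Figure D1:**
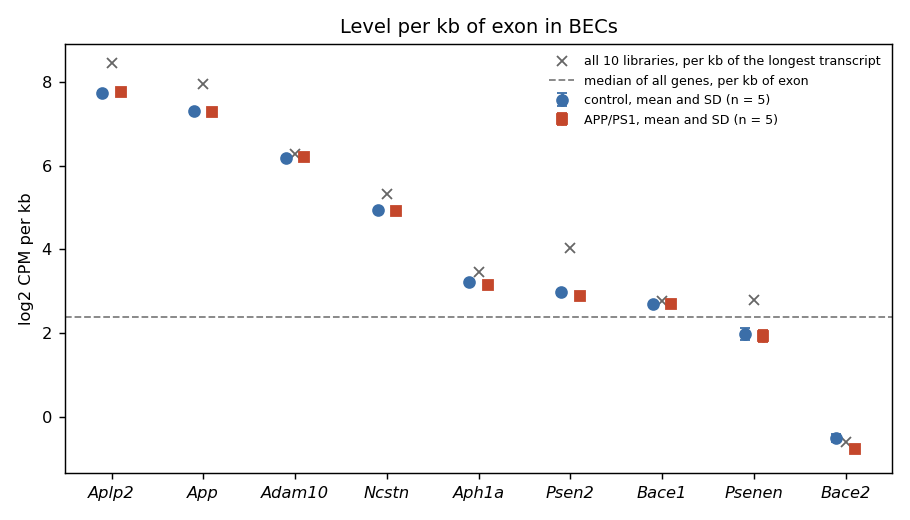
Level of each member per kb, in log2 CPM per kb, as the mean of 5 control libraries (blue circles) and of 5 APP/PS1 libraries (red squares) with the SD as bars, smaller than the symbol for most. Crosses give the mean of all 10 libraries per kb of the longest transcript and the dashed line the median of all genes per kb of exon (2.38). Aplp2, App and Adam10 are the highest members and Bace2 is the lowest.

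Within a library the balance of opposing enzymes can be read as a ratio, which does not depend on how the library was scaled. Adam10 exceeded Bace1 by 3.50 ± 0.05 log2 units per kb in controls and by 3.51 ± 0.05 in APP/PS1 (SD, n = 5), or 11.3-fold over all libraries. The alpha-secretase transcript was thus more abundant than the beta-secretase transcript in every library, and the difference between genotypes was smaller than the spread between libraries. Bace2 relative to Bace1 was -3.19 ± 0.12 in controls and -3.47 ± 0.12 in APP/PS1, lower in 4 of 5 pairs with pair differences from -0.55 to 0.10. App relative to Aplp2 was -0.44 ± 0.03 in controls and -0.49 ± 0.03 in APP/PS1, lower in 4 of 5 pairs. Psen2 relative to Ncstn was -1.96 ± 0.06 and -2.04 ± 0.06, again lower in 4 of 5 pairs. These ratios were described and not tested, and the ranges of the genotypes overlapped in each of them.

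To ask whether APP processing genes differ between APP/PS1 and control BECs, the genotypes were compared with limma, with genotype and the replicate number as terms and p-values adjusted over all 14106 genes. At an adjusted p under 0.05, 0 of 9 members passed, and 0 of all genes did (0%), the smallest adjusted p of any gene being 0.195 in limma. At an unadjusted p under 0.05, 1 of 9 members passed, Bace2, against 1133 of all genes (8.03%). On average 3 members were higher and 6 were lower in APP/PS1, with a median log2 difference of -0.03 against -0.00 over all genes. None of the members was lower in all 5 pairs, as 705 genes were (5%), or higher in all 5 pairs, as 422 genes were (2.99%). The values of the genotypes overlapped for each member, whereas 1111 genes had values that did not overlap (7.88%). This count nearly restates the pair signs and is not a second result. A single called member of 9 is close to the share over all genes. Of the 9 members, 7 had pair differences that varied less (SD) than those of the median gene, which had an SD of 0.173.

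**Figure D2:**
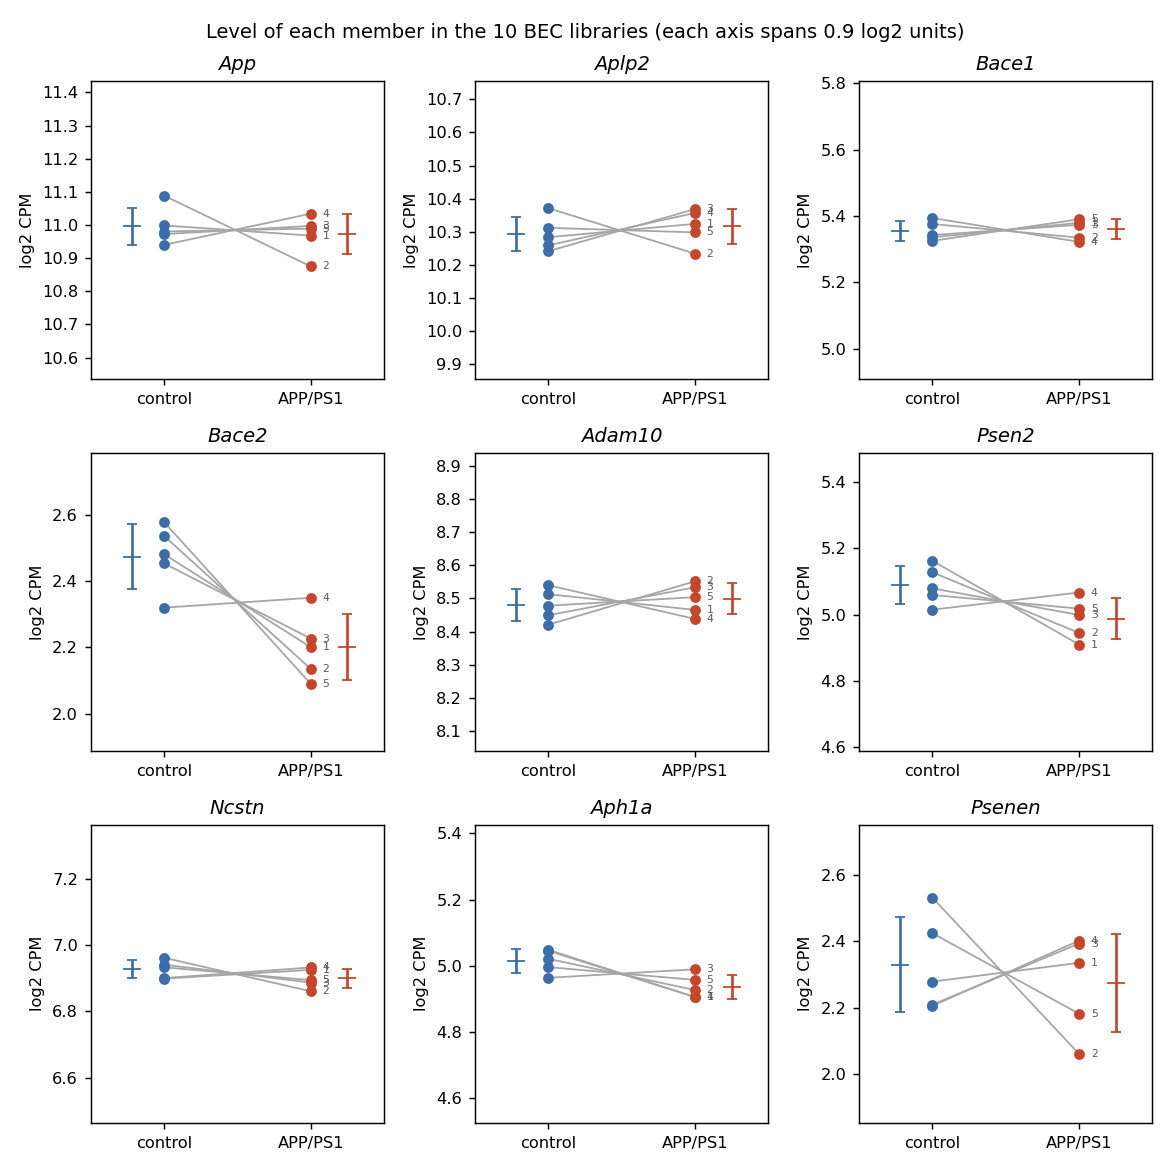
Level of each of the 9 members in log2 CPM in the 5 control (blue) and 5 APP/PS1 (red) libraries. Grey lines join libraries with the same replicate number, given beside the APP/PS1 point, the bars beside the points are the mean and SD of each group, and each axis spans 0.9 log2 units. The points of the genotypes overlap for every member, and Bace2 shows the widest separation, with only pair 4 higher in APP/PS1.

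App (ENSMUSG00000022892, chr16:84949685-85173766, minus strand, mm10), the amyloid precursor protein itself, measured 11.00, 11.09, 10.97, 10.94 and 10.98 log2 CPM in control libraries 1 to 5 and 10.97, 10.87, 11.00, 11.03 and 10.99 in APP/PS1 libraries 1 to 5. The libraries of replicate 2 were the highest control and the lowest APP/PS1 library, and the groups overlapped. The means were 11.00 ± 0.06 and 10.97 ± 0.06 (SD, n = 5). The log2 difference was -0.02 (SE 0.0578, adjusted p = 0.948 by limma), with a 95% interval of -0.17 to 0.12, a fold of 0.891 to 1.09. App was higher in 3 of 5 pairs, and without the pair of replicate 2 the difference was 0.02. A higher App level in APP/PS1 BECs than 1.09-fold lies outside this interval. Prnp, whose promoter drives the transgenes in the widely used line, stood at 7.76 ± 0.16 log2 CPM in controls and 7.84 ± 0.17 in APP/PS1, with a log2 difference of 0.08 (SE 0.128, adjusted p = 0.914 by limma). Per kb of exon, Prnp was above 97.6% of genes in these cells.

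Aplp2 (ENSMUSG00000031996, chr9:31149557-31211815, minus strand) stood at 10.28, 10.37, 10.24, 10.26 and 10.31 log2 CPM in controls and at 10.32, 10.23, 10.37, 10.36 and 10.30 in APP/PS1. Replicate 2 again gave the highest control and the lowest APP/PS1 value. Its log2 difference was 0.02 (SE 0.0549, 95% interval -0.11 to 0.16, adjusted p = 0.946 by limma), higher in 3 of 5 pairs, and smaller than the spread between libraries. The genes nearest to App over the 10 libraries, by the root mean square difference of mean-centred log2 values, were Cd151 (0.0149), AW554918 (0.0186), Sgpl1 (0.0186), Ephx1 (0.0186) and Ptms (0.0188). Aplp2 was the nearest member (0.0332, with 0.872% of genes nearer), then Ncstn (0.0376, 1.64% nearer), and Bace2 was the farthest, with 68.3% of genes nearer. The points of this measure share libraries and batch correction, and it is given as a description.

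Among the beta-secretases Bace2 was lower in APP/PS1 on average and Bace1 was not. Bace2 (ENSMUSG00000040605, chr16:97356742-97442936, plus strand) was at 2.48, 2.54, 2.45, 2.32 and 2.58 log2 CPM in control libraries and at 2.20, 2.13, 2.23, 2.35 and 2.09 in APP/PS1 libraries. The APP/PS1 library of replicate 4 was above the control library of the same number, and it is the library that makes the groups overlap. The means were 2.47 ± 0.10 and 2.20 ± 0.10 (SD, n = 5), a log2 difference of -0.27 (SE 0.0831) or a fold of 0.827 with a 95% interval of 0.718 to 0.954. Pair differences were -0.28, -0.40, -0.23, 0.03 and -0.49 for replicates 1 to 5. The difference did not pass the threshold over all genes (unadjusted p = 0.0174, adjusted p = 0.569 by limma), and in the exact two-sided sign-flip permutation test over the 5 pairs 4 of the 32 sign arrangements gave a mean difference at least as large. No result of 5 pairs can have fewer than 2 of 32, so this test cannot pass a threshold of 0.05. With genotype alone in the model, adjusted p was 0.0370 in limma for the same difference, and 648 genes passed in place of 0. That model does not count the batch means which the correction had already removed. Summed mural markers differed by -1.70, -0.31, -0.42, -1.35 and 0.01 log2 units in pairs 1 to 5. Oligodendrocyte sums differed by -3.07, 1.82, -2.18, -2.30 and -2.51 in these pairs. Choroid plexus sums differed by -1.16, -0.95, -0.14, -0.75 and 0.12. Summed neuronal markers differed by -0.33, 0.09, -0.27, 0.08 and -0.34 in the same pairs. Stmn2 makes up most of that sum. In pair 4 Stmn2 differed by 0.42 and Gad1 by 0.49, whereas the other neuronal markers in the table were lower. The part of other cell types in the Bace2 value was not tested.

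Bace1 (ENSMUSG00000032086, chr9:45838580-45864399, plus strand) was at 5.34, 5.38, 5.34, 5.39 and 5.32 log2 CPM in controls and at 5.38, 5.33, 5.37, 5.32 and 5.39 in APP/PS1. The 10 values lay within 0.1 log2 units of each other, a narrower spread than that of most genes (4.90% of genes had a smaller SD of pair differences). The log2 difference was 0.01 (SE 0.0445, 95% interval -0.10 to 0.12, adjusted p = 0.984 by limma). Exons of Bace1 share 975 bases (15.4%) with Rnf214 and 951 bases (15%) with Gm49338, both on the other strand, and whether strand was used in counting is not stated in the sources used here. If strand was not used, reads from the shared bases cannot be assigned to Bace1 alone.

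Adam10 (ENSMUSG00000054693, chr9:70678997-70780229, plus strand), the alpha-secretase, was at 8.51, 8.42, 8.45, 8.54 and 8.48 log2 CPM in controls and at 8.47, 8.55, 8.53, 8.44 and 8.50 in APP/PS1. Neither group stood above the other. On average the log2 difference was 0.02 (SE 0.0523, 95% interval -0.11 to 0.15, adjusted p = 0.956 by limma), higher in 3 of 5 pairs. Without the pair of replicate 2 it was -0.01.

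The 4 gamma-secretase subunit genes all had negative mean differences, from -0.10 to -0.03, and none passed the test. Psen2 (ENSMUSG00000010609, chr1:180227004-180263438, minus strand), a presenilin and so a catalytic subunit, was at 5.16, 5.13, 5.08, 5.02 and 5.06 log2 CPM in controls and at 4.91, 4.94, 5.00, 5.07 and 5.02 in APP/PS1. It was lower in 4 of 5 pairs, most of all in pair 1 (-0.25), and higher in pair 4. The log2 difference was -0.10 (SE 0.0589, 95% interval -0.25 to 0.04, adjusted p = 0.772 by limma), and the exact sign-flip permutation test gave p = 0.1875. Aph1a (ENSMUSG00000015750, chr3:95893969-95898288, plus strand), the scaffold, was at 5.05, 5.02, 4.96, 5.05 and 5.00 in controls and at 4.91, 4.93, 4.99, 4.91 and 4.96 in APP/PS1. Only the APP/PS1 library of replicate 3 was above its control. Its log2 difference was -0.08 (SE 0.0470, 95% interval -0.19 to 0.04, adjusted p = 0.784 by limma). Exons of Aph1a share 445 bases (12.9%) with Car14 on the other strand, and Car14 had a log2 difference of -0.17.

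Ncstn (ENSMUSG00000003458, chr1:172066013-172082795, minus strand), the substrate receptor of the complex, was at 6.90, 6.96, 6.94, 6.90 and 6.93 log2 CPM in controls and at 6.92, 6.86, 6.89, 6.93 and 6.89 in APP/PS1. The log2 difference was -0.03 (SE 0.0440, 95% interval -0.14 to 0.08, adjusted p = 0.913 by limma), lower in 3 of 5 pairs. Ncstn was the subunit gene with the narrowest spread. Psenen (ENSMUSG00000036835, chr7:30561863-30563627, minus strand), which encodes PEN-2, was at 2.28, 2.53, 2.21, 2.21 and 2.42 in controls and at 2.34, 2.06, 2.39, 2.40 and 2.18 in APP/PS1. It varied the most of the members, with pair differences from -0.47 in pair 2 to 0.20 in pair 4. Its mean log2 difference was -0.06 (SE 0.115, 95% interval -0.34 to 0.23, adjusted p = 0.930 by limma), and it was 0.05 without the pair of replicate 2. Exons of Psenen share 119 bases (9.33%) with U2af1l4 and 111 bases (8.71%) with Gm49396, both on the other strand. U2af1l4 was not in the table, and Gm49396 was at 2.29 log2 CPM with a log2 difference of -0.06. Psenen and Bace2 had the widest intervals and the lowest adjusted counts, and a difference of the size seen in Bace2 lies inside the interval of Psenen.

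**Figure D3:**
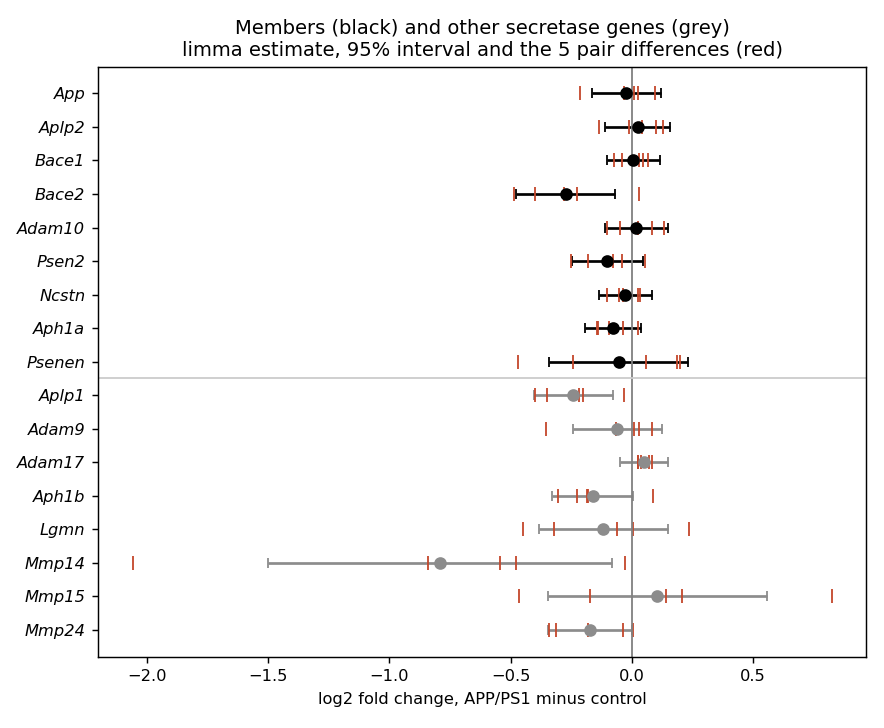
Log2 fold change, APP/PS1 minus control, of the 9 members (black) and of 8 other secretase and substrate genes (grey), as the limma estimate with its 95% interval and the 5 pair differences (red ticks). Among the members only the interval of Bace2 (-0.48 to -0.07) lies clear of 0, before adjustment over all genes.

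The wider set of secretases and the substrate paralog held 11 genes, of which 8 were in the table (Aph1c, Mmp16 and Mep1b were not). Of these 2 were higher and 6 lower on average, 0 passed at an adjusted p under 0.05 and 3 lower genes passed at an unadjusted p under 0.05 (8.03% over all genes in either direction), with a median log2 difference of -0.14 against -0.00 over all genes. Aplp1, the APP paralog best known from neurons, was at 4.93 ± 0.07 log2 CPM in controls and 4.69 ± 0.07 in APP/PS1. It was lower in 5 of 5 pairs, and so its groups did not overlap, with a log2 difference of -0.24 (SE 0.0658, adjusted p = 0.544 by limma). All members of the APP family are thus in these data, and Aplp1 was the lowest of the family per kb, at 3.22 log2 CPM per kb. The summed neuronal markers, which differed by -0.33, 0.09, -0.27, 0.08 and -0.34 in pairs 1 to 5, were lower in 3 of 5 pairs. Stmn2, with a log2 difference of 0.02, makes up most of that sum, and the other 8 neuronal markers had differences from -2.28 to -0.18. Their part in the Aplp1 value was not tested. Aph1b, the paralog of the Aph1a scaffold, had a log2 difference of -0.16 (adjusted p = 0.635 by limma). It is near-identical to Aph1c, and how reads that fit both genes were counted is not stated in the sources used here. Mmp14, a membrane metalloprotease with eta-secretase activity, was at 0.82 ± 0.29 and 0.03 ± 0.48 log2 CPM and lower in 5 of 5 pairs. Its log2 difference was -0.79 (SE 0.287, adjusted p = 0.593 by limma). Pair differences of Mmp14 were -2.06, -0.54, -0.84, -0.03 and -0.48 in pairs 1 to 5, beside mural sums of -1.70, -0.31, -0.42, -1.35 and 0.01. The part of mural cells in the Mmp14 value was not tested. Mmp24, a further eta-secretase, had a difference of -0.17 (adjusted p = 0.622 by limma), and Mmp15 one of 0.11. The alpha-secretase Adam17 was higher in 5 of 5 pairs, and so its groups did not overlap. Its log2 difference was 0.05 only (SE 0.0400, adjusted p = 0.843 by limma). Adam9, another candidate alpha-secretase, and the delta-secretase gene Lgmn had differences of -0.06 and -0.12.

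The next group steers the secretases. Of 21 such regulators 19 were in the table, 12 higher and 7 lower. At an unadjusted p under 0.05, 1 passed in each direction (8.03% over all genes in either direction), and 0 passed at an adjusted p under 0.05. The median log2 difference was 0.04 (0.028, 0.073, 0.020 and 0.0089 without the pair of replicate 1, 2, 3 or 4). Tetraspanins escort ADAM10 to the cell surface and set which substrates it cuts. Tspan15 was lower in 5 of 5 pairs, and so its groups did not overlap. It was at 3.30 ± 0.02 log2 CPM in controls and 3.06 ± 0.02 in APP/PS1. The log2 difference was -0.24 (SE 0.0408, unadjusted p = 0.00122, adjusted p = 0.368 by limma). Tspan5 was higher in 5 of 5 pairs, and so its groups did not overlap, at 8.08 ± 0.04 and 8.20 ± 0.04. The difference was 0.12 (SE 0.0471, adjusted p = 0.602 by limma). Of the other tetraspanins of this list in the table, Tspan14 had a difference of 0.07 and Tspan17 one of -0.10, and their groups overlapped. In all, 2 of the 19 regulators had groups that did not overlap, close to the share over all genes (7.88%), and none passed the adjusted threshold. Tspan14 and Tspan17 were named after their values were seen. Rhbdf1, an iRhom that carries ADAM17 out of the endoplasmic reticulum, had a difference of 0.13, and Rtn1, a reticulon of a family that binds BACE1, one of -0.40. Timp3, a secreted inhibitor of metalloproteases including ADAM10 and ADAM17, was at 11.43 ± 0.18 and 11.68 ± 0.18 log2 CPM and higher in 4 of 5 pairs, with a difference of 0.25 (adjusted p = 0.762 by limma). Ifitm3, an interferon-induced protein that binds gamma-secretase, had a difference of -0.13 and was lower in 3 of 5 pairs.

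Of 34 genes for APP trafficking and adaptor proteins, 30 were in the table, 16 higher and 14 lower with a median of 0.00. At an unadjusted p under 0.05, 1 higher and 3 lower genes passed (8.03% over all genes in either direction). At an adjusted p under 0.05, 0 passed. Sorl1, a sorting receptor that moves APP away from the secretases, was lower in 5 of 5 pairs, at 1.00 ± 0.37 log2 CPM in controls and -0.12 ± 0.50 in APP/PS1, a log2 difference of -1.12 (SE 0.324, adjusted p = 0.554 by limma). The pair differences of Sorl1 were -1.55, -0.15, -1.10, -0.47 and -2.32 in pairs 1 to 5. Mural sums differed by -1.70, -0.31, -0.42, -1.35 and 0.01 in the same pairs. Oligodendrocyte sums differed by -3.07, 1.82, -2.18, -2.30 and -2.51. The part of these cells was not tested. Mapk8ip1 (JIP1), which links APP to kinesin, was lower in 5 of 5 pairs with a difference of -0.34 (SE 0.0995, adjusted p = 0.563 by limma). Picalm, a clathrin adaptor in the uptake of APP and of gamma-secretase, was higher in 4 of 5 pairs with a difference of 0.19 (SE 0.0719, adjusted p = 0.598 by limma), and Apba1, an APP-binding adaptor, had a difference of 0.18. Itm2a and Itm2b, of the BRICHOS family, were the highest of this group per kb and had differences of -0.06 and 0.02.

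The other substrates of the alpha- and gamma-secretases numbered 27, of which 25 were in the table, 17 higher and 8 lower with a median of 0.07, which was 0.020 without the pair of replicate 4, 0.034 without that of replicate 5 and 0.11 without that of replicate 2. At an unadjusted p under 0.05, 1 was higher and 4 lower (8.03% over all genes in either direction), and 0 passed at an adjusted p under 0.05. The endothelial receptors and adhesion proteins among them lay at high levels. Flt1 was at 12.73 ± 0.03 and 12.82 ± 0.03 log2 CPM with a difference of 0.09, and Cdh5 (VE-cadherin) at 10.15 ± 0.11 and 10.26 ± 0.11 with a difference of 0.10. Tgfbr1 was higher in 5 of 5 pairs (0.11, SE 0.0425, adjusted p = 0.600 by limma). Il6ra, which ADAM proteases shed, was lower in 5 of 5 pairs (-0.17, SE 0.0548, adjusted p = 0.569 by limma). Lrp1, a clearance receptor of amyloid-beta that mural cells and neurons also express, was lower in 4 of 5 pairs (-0.55, SE 0.184, adjusted p = 0.569 by limma). Its pair differences were -1.18, -0.24, -0.70, -0.72 and 0.07 beside mural sums of -1.70, -0.31, -0.42, -1.35 and 0.01. The part of mural cells in the Lrp1 value was not tested.

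The last group comprised other substrates of the beta-secretases. Of 15 such genes 12 were in the table, 2 higher and 10 lower with a median log2 difference of -0.31, and 4 lower genes passed at an unadjusted p under 0.05 (8.03% over all genes in either direction) and 0 at an adjusted p under 0.05. The median rests in part on genes at low levels, and over the 8 genes with a mean of at least 1 log2 CPM it was -0.11, beside -0.12 for the other secretases under the same filter. Several of these substrates are genes of neurons and glia, whose marker lists had negative medians. Scn4b, a sodium channel subunit, was at 4.97 ± 0.19 and 4.38 ± 0.19 log2 CPM and lower in 5 of 5 pairs (-0.59, SE 0.143, adjusted p = 0.537 by limma). Chl1, a neural adhesion protein, was at -1.23 ± 0.27 and -2.93 ± 1.14 log2 CPM, lower in 5 of 5 pairs, with an adjusted count of 0 in at least 1 library, so its log2 value there depends on the prior count. The endothelial genes named from this group were Vcam1 (-0.23, lower in 4 of 5 pairs), Jag1 (0.16) and Flt4 (0.05), at 9.24, 8.04 and 8.39 log2 CPM in controls. Jag1 and Flt4 were the 2 higher genes of the group. What part the amount of neuronal and glial RNA had in the median of this group was not tested.

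**Figure D4:**
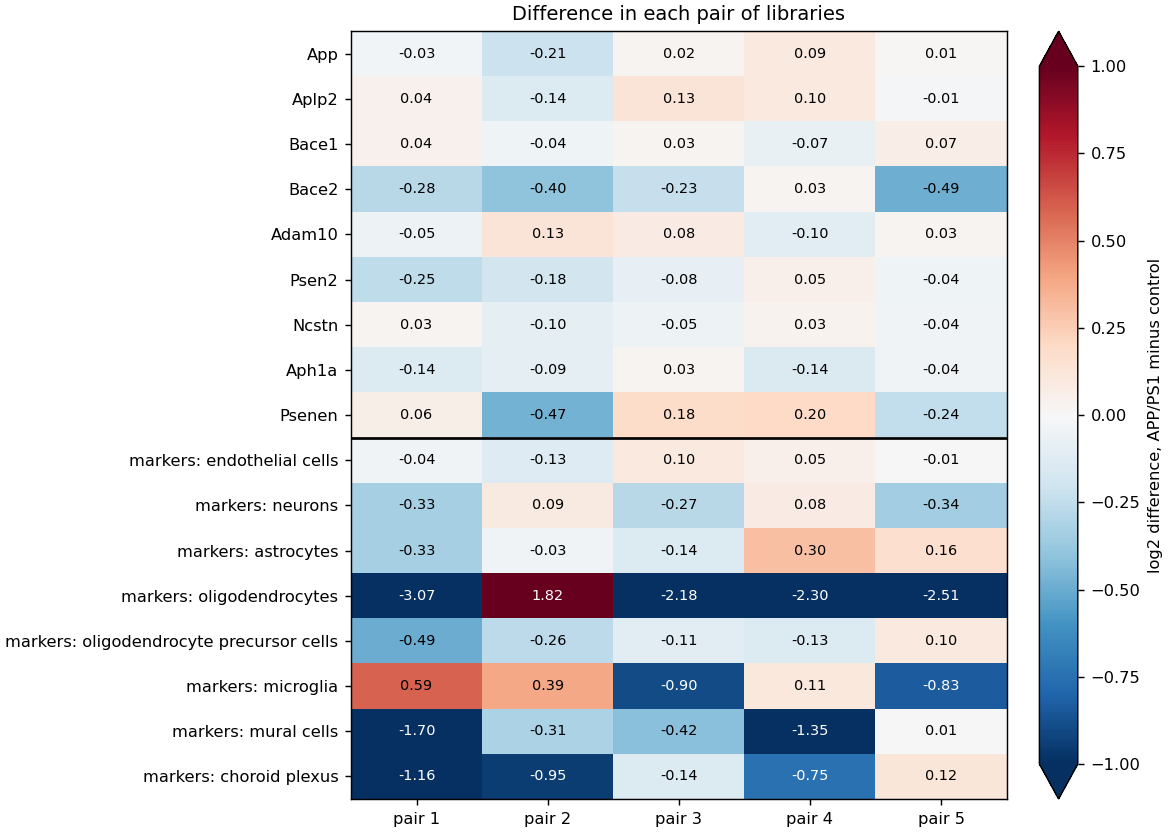
Log2 difference, APP/PS1 minus control, in each of the 5 pairs of libraries for the 9 members (above the line) and for the summed CPM of each list of cell type markers (below it), printed in the cells, with red for higher and blue for lower in APP/PS1 and the colours ending at 1 unit in either direction. The members lie between -0.49 and 0.20, whereas the summed oligodendrocyte markers range from -3.07 to 1.82 and turn sign in pair 2. Most of the neuronal sum is Stmn2 and most of the astrocyte sum is Gja1.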

How the data were processed

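Bulk RNA sequencing of BECs was analysed in 10 libraries, 5 per genotype, grouped by the labels. According to the methods of the study, the authors used STAR for alignment to mm10 and HTSeq for gene counts, removed weakly expressed genes and computed log CPM with edgeR, and corrected for batch with ComBat. Versions and the gene annotation are not given in the sources used here. The deposited values are log2 CPM, 1 column per library, and 10 of 10 single-library files equal their column. They convert back to whole numbers with a prior count of 3 for 100% of genes (tolerance 0.01). These are adjusted counts, not reads, which limits what can be said of counting error.

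Symbols were taken from GENCODE mouse M21 (14106 of 14106 identifiers), as were exon lengths. Promoter windows came from RefSeq (GRCm38.p6). The genotypes were compared with limma 3.58.1 in R 4.3.3 (lmFit and eBayes, 1 prior variance, two-sided, Benjamini-Hochberg over all genes), with genotype and the replicate number as a block of 5. The study used lmFit and eBayes, and its methods give no model terms. The block was used because the labels put libraries of the same number in the same batch. The labels list 4 batches, with replicates 4 and 5 in 1, yet the values have equal means over each of the 5 pairs, and the deviations of same-numbered libraries mirrored each other (Spearman rho -0.999 to -0.989 across 10873 genes above 2 log2 CPM). The exact sign-flip permutation test over 5 pairs was used for single genes. Gene lists were described by counts and medians, without a test. Self-made scripts were tested on simulated data.

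The members and lists were chosen with earlier results of these data known. Genes named are the 9 members, Prnp, all of the list of other secretases, and from each other list the 2 smallest p-values in each direction and the 2 highest levels per kb, the 5 genes nearest to App, and the gene with the highest log2 CPM of each marker list. Alternatives were other block terms, limma-voom, a mean-variance trend, other scalings, a prior count of 0.125, a filter at a mean of 1 log2 CPM, an adjusted p under 0.1, and leaving out each pair. The second presenilin gene and 1 microglial marker are not reported here, and that marker was left out of its list after the results were computed.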

Additional observations from a re-analysis of the deposited data

Results flagged for a closer look

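In each genotype 1 library stood apart from the other 4 in the summed level of oligodendrocyte markers, by Dixon's criterion at a limit of 0.71 for 5 samples. The control library of replicate 2 had the lowest sum of its group, 5.33 on the log2 scale of summed CPM, with a gap to the next library of 0.774 of the range. The APP/PS1 library of replicate 2 had the highest sum of its group, 7.14 on the same scale, with a gap of 0.750 of the range. The libraries of this pair were mirrored by the batch correction, so these count as a single observation. In all 42 groups of values were searched, of which chance alone would pick out about 1 in 20. Among the members, App, Psenen and Adam10 had differences of -0.02, -0.06 and 0.02 with this pair and of 0.02, 0.05 and -0.01 without it. Whether the oligodendrocyte RNA of this pair bears on these values was not tested.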

How the results depend on the processing

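The count of genes past an adjusted p under 0.05, 0 with the replicate block, was 648 with no replicate block, 1 with the 4 batches of the labels and 0 to 5 when a pair was left out (5 without replicate 2, 1 without replicate 5). It was 0 under the other alternatives, limma-voom included. At an unadjusted p under 0.05, 748 to 3049 genes passed over all settings. Among the members, 1 passed with no replicate block, Bace2 (-0.27, adjusted p = 0.0370 by limma), and over its alternatives the adjusted p of Bace2 ranged from 0.0370 to 0.929. The block changed no other call among the members. Bace2, Psen2, Ncstn and Aph1a were lower under all 13 alternatives each, and the other 5 members changed sign under at least 1. The other block terms, the mean-variance trend and the filter at a mean of 1 log2 CPM leave each mean difference as it was. In these alternatives the sign could not change. With limma-voom Bace1 was at -0.00024. With library size alone, which shifted the median of all genes by -0.037, Aplp2 was at -0.014, Bace1 at -0.032, Adam10 at -0.019 and the median of the APP trafficking list at -0.034. Leaving out each pair in turn gave -0.053 to 0.024 for App, -0.0032 to 0.063 for Aplp2, -0.0097 to 0.025 for Bace1, -0.35 to -0.22 for Bace2, -0.0097 to 0.048 for Adam10, -0.14 to -0.063 for Psen2, -0.042 to -0.0085 for Ncstn, -0.10 to -0.062 for Aph1a and -0.12 to 0.049 for Psenen. The medians of the lists ranged from -0.16 to -0.11 for the other secretases, 0.0089 to 0.073 for the regulators, -0.0081 to 0.012 for APP trafficking, 0.020 to 0.11 for the alpha- and gamma-secretase substrates and -0.39 to -0.23 for the beta-secretase substrates, whose median was -0.11 with a mean of at least 1 log2 CPM. With 5 pairs the exact sign-flip permutation test cannot pass a threshold of 0.05, and the lowest adjusted counts behind a member were 101 (Bace2) and 111 (Psenen).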
